A study of Homo sapiens with 192 samples.

Results

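HT29 and LS513 are established cell lines from human colorectal carcinoma (CRC), and the study describes both as microsatellite stable, that is, without the length changes in short DNA repeats that mark a loss of mismatch repair. The question asked here was which lineage, differentiation and signaling genes separate the 2 lines when both grow in 2D. The comparison used the 3 libraries labelled HT29-2D and the 3 labelled LS513-2D, which are 6 of the 24 libraries of the series and 48 of its 191 sets of counts. The whole series also covers HCT116 and LS174T, and every line has 3 libraries from 2D and 3 from 3D culture. The labels name no transgene and no drug treatment, and both lines were kept in DMEM with serum and antibiotics. Each line stands for 1 tumor, so a difference between them is a difference between 2 lines and not between classes of tumor. The labels do not say whether the 3 libraries of a group came from separate cultures, so the p-values measure only the spread between libraries, which may be partly technical. That spread was estimated from all 24 libraries of the series together and not from these 6 alone.

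The lining of the colon is renewed from stem cells at the base of the crypt, which Wnt signaling maintains. Their daughters become absorptive colonocytes or secretory cells, mainly mucus-producing goblet cells, and Notch signaling takes part in that choice. The homeobox factors CDX1 and CDX2 mark intestinal and colonic identity, and tumors and cell lines retain these programs to different degrees. RAS-MAPK, TGF-beta and bone morphogenetic protein (BMP) signaling are often altered in CRC.

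The 2 lines differed by more than the spread between libraries at a large share of genes. Of 19387 genes tested with edgeR's quasi-likelihood test, 6359 (32.8%) were called, which means an adjusted p under 0.05 by the Benjamini-Hochberg method and a log2 difference over 1 in size. Of these, 3160 (16.3% of those tested) were higher in HT29 and 3199 (16.5%) were higher in LS513, and 1692 calls had under 1 CPM (reads scaled to a fixed library total) in the higher line. Among the 14191 genes of at least 1 CPM in the higher line, 4667 (32.9%) were called. The libraries of 1 line did not overlap with those of the other at 13691 genes (70.6%), and 11740 (60.6%) passed the adjusted p alone. The difference exceeded 5 on the log2 scale at 792 genes higher in HT29 and at 581 higher in LS513. Any list of genes is therefore set beside these shares, and a called gene on its own is no rarity. The lists were chosen with earlier results of these data known. A higher share in a list may reflect that choice and is no test of the list. An exact permutation test of 3 libraries against 3 cannot give a two-sided p under 0.1, so all adjusted p-values below come from the edgeR fit across all genes. That fit pools the spread of all 24 libraries. With only the 6 libraries fitted, edgeR called 6237 genes. The adjusted p of single genes changed with that fit, for CDH17 from 6.5e-19 to 4.8e-06. All differences are log2 of HT29 over LS513 with the standard error (SE), and levels are CPM scaled by TMM, given as mean ± SD over 3 libraries.

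**Figure D1:**
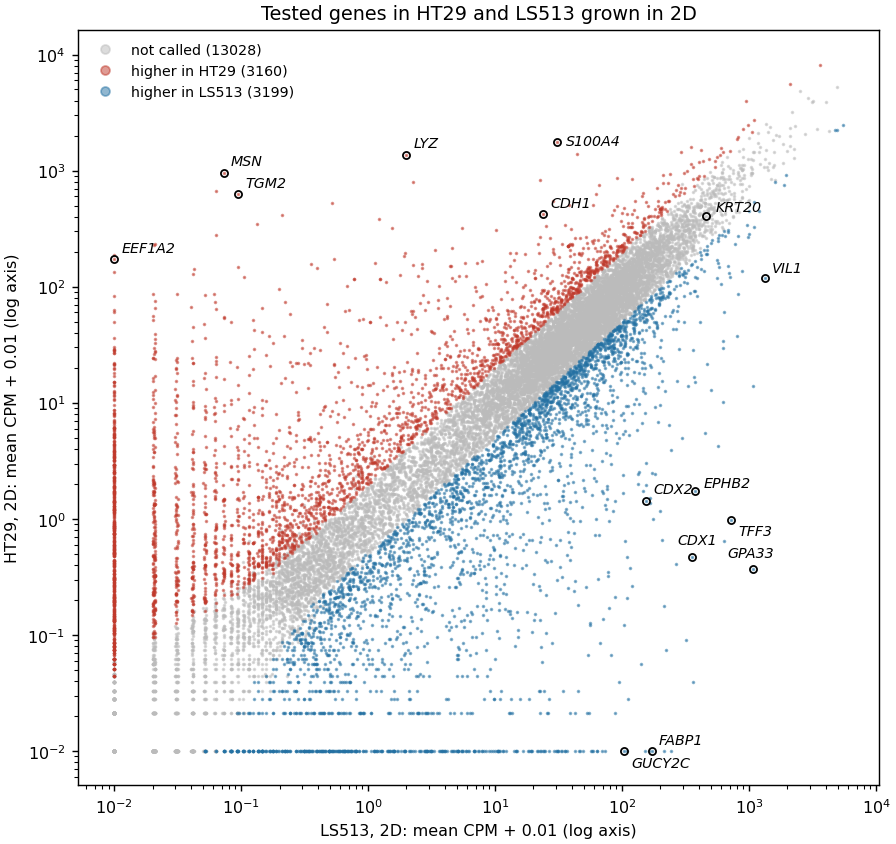
Mean level of each tested gene in LS513 (horizontal axis) and HT29 (vertical axis) grown in 2D, both as CPM + 0.01 on log axes, with 1 point per gene. Red points are the 3160 genes called higher in HT29 and blue points the 3199 called higher in LS513, and both arms reach genes that lie at or near 0 in the other line, among them EEF1A2 at the HT29 side and FABP1 at the LS513 side.

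The 6 libraries held between 18723942 and 33063055 counts, and the third HT29 library was the smallest. A count of 3 in a library corresponds to between 0.0907 and 0.160 CPM before TMM scaling, and a gene listed at 0 is below that floor and not shown to be absent. These limits and the 95% counting intervals below cover counting error only, and a bound of "at least" is taken against the highest floor of the line at 0. Repeat counts of the same library scattered about as much as counting error alone would give and were summed. The libraries of 1 group differed from each other by 2.43 to 5.93 times that error (median chi-square over its chance value), so none was a copy of another. The libraries hold RNA of whole cultures, so fewer cells that express a gene and less of its RNA per cell cannot be told apart.

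FABP1 and GPA33 had the largest difference towards LS513 among the absorptive genes and the genes of colon epithelial identity, and CDX and HNF4 factors are known to act on gut promoters, so the DNA before both genes is shown. The 250 bases before each gene start are given 5′ to 3′ along the strand of the gene, from RefSeq on GRCh38.p14. The FABP1 stretch is chr2:88128063-88128312 and the GPA33 stretch chr1:167090378-167090627, both on the minus strand. RefSeq and GENCODE 29 place the starts of both genes differently, and the stretches shown lie before the RefSeq starts. The GPA33 stretch is inside the span that GENCODE 29 gives for the gene. The GENCODE 29 span of FABP1 reaches 88128116, so the end of its stretch, with the match at -30, lies inside that span. Capitals mark matches on either strand to 3 short motifs, namely TTTAT for CDX factors, AGATAA for GATA factors and CAAAGTCCA for HNF4.
FABP1: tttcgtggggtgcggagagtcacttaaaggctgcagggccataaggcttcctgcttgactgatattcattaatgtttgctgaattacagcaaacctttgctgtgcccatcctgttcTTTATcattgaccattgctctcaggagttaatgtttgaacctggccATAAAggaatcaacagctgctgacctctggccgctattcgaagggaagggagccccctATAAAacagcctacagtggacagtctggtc
GPA33: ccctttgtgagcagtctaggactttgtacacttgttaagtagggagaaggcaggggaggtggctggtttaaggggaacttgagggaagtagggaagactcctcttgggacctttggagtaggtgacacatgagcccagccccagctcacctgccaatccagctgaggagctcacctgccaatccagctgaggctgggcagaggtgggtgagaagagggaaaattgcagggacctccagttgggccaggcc
FABP1 held the CDX letters at 3 places, which start at -134, -88 and -30 from the RefSeq gene start. The match at -30 lies in a TATA-like stretch. Of 35116 promoter stretches of this length, 32.7% hold the CDX letters, 9.17% the GATA letters and 0.325% the HNF4 letters, so a CDX match is common. The GPA33 stretch held none of these letters, and neither did that of ISX. These matches describe letters and do not show binding. MUC6, which led the mucin list, is named only.

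The list of colon epithelial identity held 12 genes, all tested, and 9 (75.0%, against 32.8% of all genes) were called. Of these, 6 were higher in LS513 and 3 in HT29, with a median difference of -1.19 against 0 over all tested genes. CDX2, the homeobox factor that specifies intestinal epithelium (chr13:27962137-27971139, GRCh38), was at 1.68, 0.963 and 1.64 CPM in the HT29 libraries and at 149, 145 and 168 CPM in those of LS513. The groups were far apart, and the difference was -6.77 ± 0.17 (SE, adjusted p = 6.2e-20), or 109-fold. GPA33, a surface antigen of intestinal epithelium (chr1:167052836-167166479), was at 0.206, 0.378 and 0.493 CPM in HT29, from 6 to 11 counts, and at 1125, 982 and 1083 CPM in LS513. Its difference of -11.59 ± 0.20 had an adjusted p of 3.4e-22. CDH17, the liver-intestine cadherin, was at 3.74, 6.4 and 2.52 CPM in HT29 and at 592, 549.9 and 564 CPM in LS513, a difference of -7.03 ± 0.20 (adjusted p = 6.5e-19).

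The general epithelial genes were split between the lines. EPCAM was present in both lines, with 452 ± 23.1 CPM in HT29 and 1197 ± 30.4 CPM in LS513 (-1.41 ± 0.08). VIL1, the actin bundler of the brush border, differed more, with 119.6 ± 11.1 CPM in HT29 and 1333 ± 43.4 CPM in LS513 (-3.48 ± 0.10). CDH1, which encodes E-cadherin (chr16:68737225-68835548), went the other way, at 401, 426 and 444 CPM in HT29 and 25.7, 22.1 and 23.8 CPM in LS513. That difference was 4.15 ± 0.14 (adjusted p = 2.5e-17), or 17.8-fold in favor of HT29. The keratin gene KRT18 was higher in HT29 as well, with 5581 ± 540.0 CPM against 2087 ± 47.7 CPM (1.42 ± 0.15, adjusted p = 1.1e-08), as was its partner KRT8 (1.18 ± 0.20). KRT20, a keratin of differentiated colon epithelium, overlapped between the lines, at 379, 512 and 327 CPM in HT29 and 472, 397 and 512 CPM in LS513 (-0.18 ± 0.15, adjusted p = 0.30). LGALS4 and KRT19 were the other 2 genes not called. HT29 in 2D thus held the keratins and EPCAM of an epithelial line while CDX2 and GPA33 were each at 1.68 CPM or lower in all its libraries.

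Of the 32 gut lineage transcription factors, 28 were tested and 19 (67.9%, against 32.8% of all genes) were called. LS513 was higher at 14 of these 19. The list's median difference was -1.08, and -1.09 with genes at 0 in a line set at their bound. CDX1 (chr5:150166795-150184558) was at 0.617, 0.275 and 0.493 CPM in HT29 and at 359.8, 358 and 340.5 CPM in LS513, a difference of -9.58 ± 0.27 (adjusted p = 5.9e-18). ISX, an intestine-specific homeobox factor, had no count in HT29 and was at 11.3, 11.7 and 13.7 CPM in LS513, which makes it at least 74.4-fold higher there. ATOH1, the master factor of the secretory lineage, was also lower in HT29, with 0.309 ± 0.0603 CPM against 10.1 ± 1.97 CPM (-4.99 ± 0.27). The nuclear receptor HNF4A, which drives enterocyte genes, was present in both lines but higher in LS513, with a difference of -1.31 ± 0.14. FOXA2, FOXA3, KLF4 and GATA6 lay on the same side, with differences between -3.71 and -1.52.

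The 5 factors higher in HT29 included FOXA1, GATA2, GATA3 and KLF5. FOXA1, a pioneer factor of endoderm, was at 59.3, 59.8 and 67.2 CPM in HT29 and at 1.93, 2.24 and 2.31 CPM in LS513 (4.84 ± 0.24, adjusted p = 1.4e-14), so the FOXA family was split between the lines. GATA2, best known from blood progenitors, was at 135, 90.1 and 136 CPM in HT29 and at 12.5, 14.1 and 13.7 CPM in LS513 (3.16 ± 0.26, adjusted p = 1.8e-10). GATA3 had 3.63 ± 0.214 CPM in HT29 and no count in LS513, at least 37.6-fold higher. KLF5 was only just past the fold limit (1.01 ± 0.12). SOX9, ELF3, EHF, HNF4G, PPARG and HES1 were among the 9 not called.

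**Figure D2:**
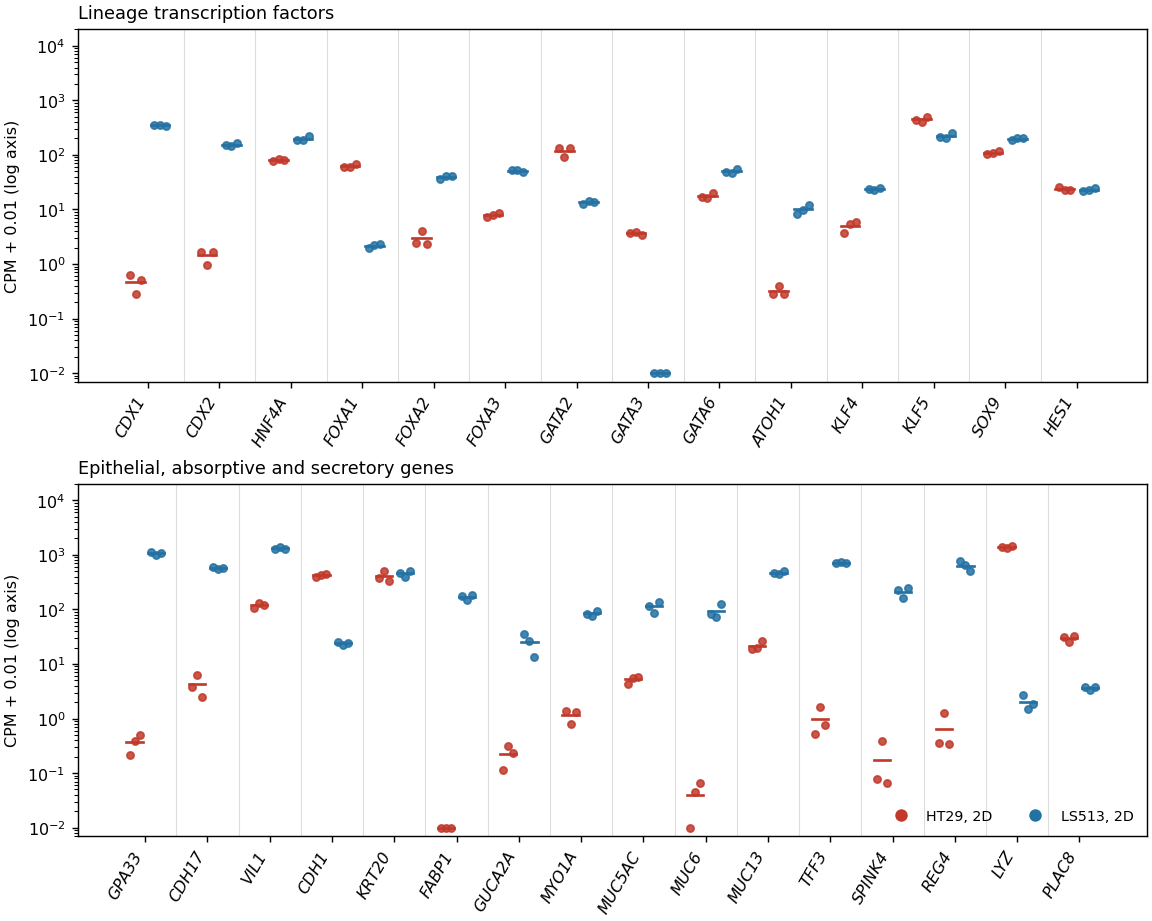
CPM + 0.01 on a log axis in each of the 3 libraries of HT29 (red) and LS513 (blue) grown in 2D, with a bar at the mean of the 3, for lineage transcription factors (upper panel) and epithelial, absorptive and secretory genes (lower panel). CDX1 and CDX2 lie far higher in LS513 in every library, FOXA1, GATA2 and GATA3 lie higher in HT29, and KRT20 and HES1 overlap.

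The HOX genes, which record position along the body axis, showed the opposite balance. Of 39 members 33 were tested, and 17 were higher in HT29 while 2 were higher in LS513, so 57.6% were called against 32.8% of all genes. The median difference was 2.15, or 1.07 with genes at 0 set at their bound. All 9 tested HOXC genes were higher in HT29, and of the HOXB genes HOXB2 alone was called. Several HOXC genes share exons, among them HOXC5, for which 59.9% of the exonic length overlaps other genes, so their levels are uncertain. HOXA5 was at 11.5, 9.50 and 11 CPM in HT29 and at 0.161, 0.121 and 0.127 CPM in LS513 (6.25 ± 0.33, adjusted p = 6.7e-14). HOXC13 was at 6.04, 7.33 and 5.59 CPM in HT29 and at 0.129, 0.0906 and 0.0317 CPM in LS513 (6.18 ± 0.34, adjusted p = 7.9e-13). Posterior members that both lines held in quantity were not called, among them HOXA13, at 37.8 CPM in HT29 and 36 CPM in LS513. The 2 genes higher in LS513, HOXD3 and HOXD4, were at 0.114 and 0.125 CPM there, near the floor of 3 counts, and 5 of the 19 calls had under 1 CPM in the higher line.

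Of 38 genes of absorptive colonocytes and enterocytes, 27 were tested. LS513 was called higher at 13 of them and HT29 at 7 (74.1% called, against 32.8% of all genes). The list's median was -0.98, and -0.36 with genes at 0 set at their bound. FABP1, the fatty acid binding protein of enterocytes and liver (chr2:88122982-88128116), whose promoter stretch is shown above, had no count in any HT29 library and was at 174, 150.0 and 187 CPM in LS513, at least 1035-fold higher. GUCA2A, which encodes the hormone guanylin, was at 0.103, 0.310 and 0.219 CPM in HT29 and at 34.8, 26.4 and 13.6 CPM in LS513 (-6.87 ± 0.43, adjusted p = 5.3e-12). Guanylin's receptor gene GUCY2C, which was not on the list but among the 10 widest gaps of all genes, had no count in HT29 and 103, 95.9 and 112 CPM in LS513, at least 631-fold higher. The genes of guanylin and of its receptor, which take part in fluid secretion, were therefore both at or near 0 in HT29. The brush border myosin MYO1A (-6.20 ± 0.19) and the peptidase DPP4 (-2.93 ± 0.19) were higher in LS513.

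HSD17B2 and PLAC8 were the widest differences of that list towards HT29 among genes of at least 5 CPM. HSD17B2, a steroid dehydrogenase of surface epithelium, was at 10.5, 8.77 and 8.71 CPM in HT29 and at 1.25, 1.09 and 1.05 CPM in LS513 (3.04 ± 0.27, adjusted p = 2.4e-09). PLAC8 was at 30.7, 25.6 and 32.7 CPM in HT29 and at 3.76, 3.26 and 3.77 CPM in LS513 (3.04 ± 0.16, adjusted p = 4.6e-14). The CEACAM adhesion genes were split, since CEACAM1 was higher in HT29 (1.66 ± 0.16) while CEACAM5 (-2.22 ± 0.20) and CEACAM6 (-1.58 ± 0.21) were higher in LS513. The transporter SLC26A3, the carbonic anhydrases CA1 and CA4, the channel AQP8 and the disaccharidase SI of mature surface cells had too few counts to be tested in either line.

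The mucin and goblet cell list, with 36 members, had the highest share of calls, 29 of 32 tested (90.6%, against 32.8% of all genes). LS513 was higher at 23 of these calls and HT29 at 6. The list's median difference was -3.47. MUC6, a gel-forming mucin best known from the stomach (chr11:1012821-1036706), had 0, 1 and 1 counts in the HT29 libraries and 83.3, 73.4 and 124 CPM in LS513, a ratio of 3570.0 with a counting interval from 988 to 29500.0. SPINK4, a goblet cell peptide, was at 0.0686, 0.378 and 0.0548 CPM in HT29 and at 227, 162 and 249 CPM in LS513 (-10.16 ± 0.46, adjusted p = 8.3e-14). Its HT29 level rests on 2, 11 and 1 counts, and without the second HT29 library the difference was -11.63. The trefoil factor TFF3 and the goblet-cell lectin REG4 had the same order, with 0.978 ± 0.597 and 0.637 ± 0.521 CPM in HT29 and 721 ± 29.7 and 634 ± 130.0 CPM in LS513. The secreted mucin MUC5AC (-4.44 ± 0.27), the membrane mucin MUC13 (-4.44 ± 0.16) and the disulfide isomerase AGR2 (-3.23 ± 0.20) were higher in LS513 as well.

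MUC2, the main mucin of the normal colon, was low in both lines and varied between libraries. It was at 0.274, 1.20 and 0.548 CPM in HT29 and at 9.52, 4.53 and 18.2 CPM in LS513. The groups did not overlap, and the difference was -3.95 ± 0.54 (adjusted p = 1.7e-06), but with the replicate number as a block it was -3.73 and not called (adjusted p = 0.051). Without the second HT29 library it was -4.80 and without the third LS513 library -3.34. The 6 members higher in HT29 included SPINK1, a trypsin inhibitor, at 18.4, 19.6 and 18.7 CPM against 2.67, 1.72 and 1.33 CPM (3.31 ± 0.32, adjusted p = 7.3e-09). BCAS1, which goblet cells express, was at 25.7, 27.7 and 24.2 CPM in HT29 and at 7.18, 5.59 and 8.81 CPM in LS513 (1.85 ± 0.25, adjusted p = 7.3e-07). SPDEF, a factor of goblet cell maturation that acts after ATOH1, was higher in HT29 too (1.21 ± 0.21), so 2 regulators of the same lineage lay on opposite sides.

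Genes of enteroendocrine, Paneth and tuft cells were mostly near the floor, and 22 of 34 were tested. Of these, 7 were higher in each line (63.6% called, against 32.8% of all genes). The 14 calls fell to 10 without any 1 of the LS513 libraries or without the second HT29 library. In the full fit, 8 of the 14 calls had under 1 CPM in the higher line. LYZ, which encodes the antibacterial enzyme lysozyme (chr12:69348341-69354234), was the exception, at 1383, 1312 and 1426 CPM in HT29 and at 2.64, 1.51 and 1.81 CPM in LS513. That difference was 9.44 ± 0.29 (adjusted p = 2.7e-18), or 693-fold. The Paneth cell defensins DEFA5 and DEFA6 did not share this pattern and were under 1 CPM in both lines. PTGS1, the cyclooxygenase that tuft cells express, was at 15.7, 14 and 18.0 CPM in HT29 and had 2 counts in each LS513 library (7.89 ± 0.36, adjusted p = 3.8e-15), and the difference was 9.11 without technical replicate d. PRSS2, a trypsinogen gene from a family of near-identical copies and so uncertain, was at 1.30, 2.41 and 3.01 CPM in HT29 and at 9.14, 13.8 and 36.5 CPM in LS513 (-3.18 ± 0.46, adjusted p = 5.3e-06). Without the third LS513 library the difference of PRSS2 was -2.39.

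**Figure D3:**
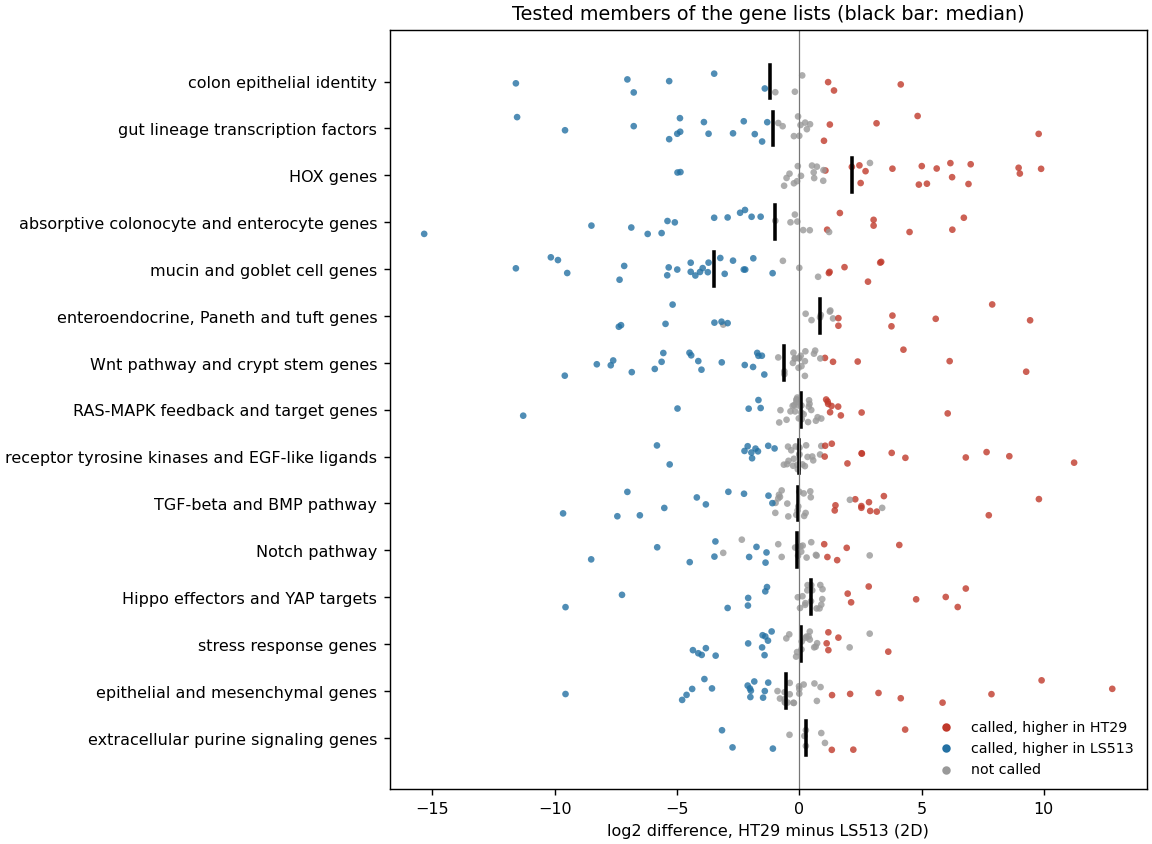
Log2 difference between HT29 and LS513 grown in 2D for every tested member of 15 gene lists, with 1 point per gene and a black bar at the median of each list. Red and blue points are genes called higher in HT29 and in LS513, and the mucin and goblet cell list (median -3.47) and the HOX genes (median 2.15) lie farthest from 0 in opposite directions.

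Of 48 genes of the Wnt pathway and crypt stem cells, 43 were tested. LS513 was called higher at 19 of them and HT29 at 6 (58.1% called, against 32.8% of all genes). The median was -0.61, and -0.26 with genes at 0 set at their bound. LEF1, a DNA-binding partner of beta-catenin (chr4:108047545-108168956), had 4, 1 and 0 counts in the HT29 libraries and was at 54.2, 52.7 and 53.7 CPM in LS513 (-9.59 ± 0.28, adjusted p = 1.4e-17). The size of that difference rests on few counts and was -11.05 without the first HT29 library. The Eph receptor EPHB2, which keeps crypt cells in place, was at 1.58, 2.24 and 1.42 CPM in HT29 and at 363, 385 and 372 CPM in LS513 (-7.71 ± 0.22, adjusted p = 6.8e-19). Other targets of the pathway had the same order, with EPHB3 at -5.91 ± 0.23, the feedback inhibitor NKD1 at -7.61 ± 0.29 and the stem cell factor ASCL2 at -6.85 ± 0.21. AXIN2, the usual reporter of the pathway, was present in both lines at a smaller difference, at 83.9, 87.2 and 91 CPM in HT29 and at 239, 227 and 238 CPM in LS513 (-1.43 ± 0.12, adjusted p = 2.5e-10). Of its exonic length 25.2% is shared with an overlapping gene. CTNNB1, which encodes beta-catenin, differed by -1.89 ± 0.09.

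The stem cell receptor LGR5 overlapped between the lines, at 14.1, 7.95 and 11 CPM in HT29 and at 12.9, 13.1 and 13.1 CPM in LS513 (-0.24 ± 0.23, adjusted p = 0.37). MYC, CCND1, CD44 and RNF43, which are all counted among Wnt targets, were not called either, with MYC at 286 ± 10.6 CPM in HT29 and 292 ± 6.55 CPM in LS513. The genes higher in HT29 were ligands, receptors and secreted inhibitors. DKK1, a secreted Wnt antagonist, was at 12.7, 32.0 and 21.3 CPM in HT29 and had 2, 0 and 1 counts in LS513, a ratio of 705 with a counting interval from 241 to 3420.0. WNT11, a ligand of the noncanonical branch, was at 131, 126 and 122 CPM in HT29 and at 1.45, 1.33 and 2.57 CPM in LS513 (6.15 ± 0.27, adjusted p = 1.4e-15). The receptor LGR6 was on the same side, by 4.26.

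The RAS-MAPK list stood closest to the background. All 39 genes were tested and 14 (35.9%, against 32.8% of all genes) were called, 9 higher in HT29 and 5 in LS513, with a median of 0.09. DUSP6, the phosphatase that reads out ERK activity, was at 47.6, 41.8 and 48.3 CPM in HT29 and at 48.3, 49.5 and 51.5 CPM in LS513 (-0.12 ± 0.15, adjusted p = 0.53). The feedback genes SPRY4, DUSP4 and DUSP5 and the target FOSL1 were not called. Negative regulators were split. NF1, a RAS GTPase activator, was at 243, 224 and 276 CPM in HT29 and at 76.0, 76.6 and 75.6 CPM in LS513 (1.70 ± 0.22, adjusted p = 3.8e-07). SPRED1, which brings NF1 to the membrane, was higher in HT29 as well, at 82.5, 94.1 and 103 CPM against 37.6, 37.6 and 37.0 CPM (1.32 ± 0.17, adjusted p = 3.1e-07). SPRY2 had the reverse order, at 15.3, 16.9 and 16.7 CPM in HT29 and at 68.1, 68.5 and 68.2 CPM in LS513 (-2.07 ± 0.16, adjusted p = 4.5e-11). EPHA4 had no count in HT29 and 10.1, 10.6 and 10 CPM in LS513, at least 62.4-fold higher.

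Of 46 receptor tyrosine kinase and EGF-like ligand genes, 44 were tested. HT29 was called higher at 12 of them and LS513 at 10 (50% called against 32.8% of all genes, median 0). The widest gaps were among ligands. FGF19, a hormone-like fibroblast growth factor of the gut, was at 42.0, 33.0 and 30.4 CPM in HT29 and had 1, 0 and 0 counts in LS513, a ratio of 3430.0 with a counting interval from 615 to 135000.0. IGF2 was at 26.7, 17.6 and 20.8 CPM in HT29 and had 2, 1 and 2 counts in LS513 (8.59 ± 0.44, adjusted p = 3.5e-14). For IGF2, 73.7% of the exonic length overlaps other genes, so its level is uncertain. Towards LS513, FGFBP1, a carrier that releases fibroblast growth factors, was at 1.65, 2.20 and 1.92 CPM in HT29 and at 66.4, 68.2 and 92.6 CPM in LS513 (-5.30 ± 0.18, adjusted p = 1.6e-17). The EGF receptor ligands did not move as a group. HBEGF was at 3.91, 4.06 and 2.85 CPM in HT29 and at 16.5, 17.3 and 18.0 CPM in LS513 (-2.24 ± 0.44, adjusted p = 0.00014), and AREG differed by -2.11 ± 0.13. EREG overlapped, at 29.7, 38.9 and 40.3 CPM in HT29 and at 31.8, 29.9 and 37.9 CPM in LS513 (0.13 ± 0.21, adjusted p = 0.63). The receptors EGFR (172 and 92.1 CPM), ERBB2, ERBB3, MET and IGF1R were not called.

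In the TGF-beta and BMP list, 41 of 46 genes were tested. Each line was called higher at 11 of them (53.7% called against 32.8% of all genes, median -0.07). The signal transducers lay on both sides. SMAD4, the common mediator of the pathway, was at 11.4, 9.19 and 11.8 CPM in HT29 and at 51.3, 52.3 and 51.5 CPM in LS513, a difference of -2.26 ± 0.12 (adjusted p = 1.1e-13), or 4.80-fold, with 7.4% of its exonic length shared with another gene. SMAD3 was higher in HT29 (2.90 ± 0.14), as were the inhibitory SMAD7, at 22.8, 22.4 and 21.6 CPM against 1.87, 2.02 and 2.19 CPM (3.46 ± 0.17, adjusted p = 2.2e-14), and SMAD6 (2.29 ± 0.14). Among ligands, BMP2 was higher in HT29, at 8.09, 10.6 and 9.53 CPM against 0.997, 1.03 and 1.11 CPM (3.17 ± 0.30, adjusted p = 2.5e-09). BMP7 was higher in LS513, at 201, 205 and 192 CPM against 0.994, 1.17 and 1.31 CPM in HT29 (-7.44 ± 0.19, adjusted p = 1.5e-19). BMP4 was not called. ID3, a BMP target that blocks basic helix-loop-helix factors (chr1:23557918-23559794), had 3, 2 and 1 counts in HT29 and was at 59.6, 60.4 and 80.7 CPM in LS513 (-9.66 ± 0.38, adjusted p = 2.8e-16). ID1, a close relative and another BMP target, went the other way, by 1.48. TGFBI, a secreted target of TGF-beta, was higher in LS513 (-4.19 ± 0.14).

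In the Notch list, 28 of 30 genes were tested. LS513 was called higher at 9 of them and HT29 at 5 (50% called against 32.8% of all genes, median -0.11). The ligands separated the lines. DLL1 had 2, 0 and 0 counts in HT29 and was at 9.69, 10.4 and 13 CPM in LS513, a ratio of 422 with a counting interval from 116 to 3490.0. DLL4 was at 0.171, 0.688 and 0.438 CPM in HT29 and at 23.7, 28.6 and 20.9 CPM in LS513 (-5.81 ± 0.29, adjusted p = 1.5e-14), and -6.44 without the second HT29 library. JAG2 (-3.43 ± 0.13) and JAG1 (-1.38) were on the same side. The receptors NOTCH1 and NOTCH2 and the target HES1 were not called, with HES1 at 23.8 ± 1.71 CPM in HT29 and 23.1 ± 1.43 CPM in LS513. The coactivators MAML2 and MAML3 were higher in HT29, MAML2 at 21.0, 16.4 and 22.8 CPM against 6.73, 7.37 and 6.37 CPM (1.55 ± 0.19, adjusted p = 2.4e-07). MAML3 was at 39.9, 37.4 and 39.5 CPM against 18.0, 17.8 and 16.8 CPM (1.15 ± 0.17, adjusted p = 3.7e-06).

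Of 32 genes of Hippo effectors and YAP targets, 30 were tested. Each line was called higher at 7 of them (46.7% called against 32.8% of all genes, median 0.48). YAP1 and the 4 TEAD factors were not called, and WWTR1, which encodes TAZ, was near 0 in both lines. The targets CCN1 (2.84) and CCN2 (5.99) were higher in HT29, with CCN2 at 2.94 and 0.0421 CPM. AXL, a receptor kinase that is also a YAP target, was at 10.6, 16.4 and 9.48 CPM in HT29 and had 4, 2 and 4 counts in LS513 (6.81 ± 0.34, adjusted p = 1.6e-14). ARHGEF17, a guanine nucleotide exchange factor, was at 68.6, 59.5 and 60.5 CPM in HT29 and at 0.837, 0.695 and 0.570 CPM in LS513 (6.48 ± 0.16, adjusted p = 9.4e-20). On the other side, AMOT, which binds YAP, had 4, 2 and 4 counts in HT29 and was at 20.1, 22.4 and 19.2 CPM in LS513 (-7.25 ± 0.33, adjusted p = 3.4e-15). The kinase NUAK2 was at 5.69, 4.37 and 5.75 CPM in HT29 and at 38.9, 41.5 and 39.4 CPM in LS513 (-2.93 ± 0.17, adjusted p = 4.3e-13).

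All 33 genes of a stress response list (cell cycle arrest, DNA repair and cell death) were tested. LS513 was called higher at 12 of them and HT29 at 5 (51.5% called against 32.8% of all genes, median 0.09). CDKN1A, the cell cycle inhibitor p21, was at 5.52, 6.81 and 4.82 CPM in HT29 and at 56.7, 64.5 and 63.7 CPM in LS513, a difference of -3.42 ± 0.29 (adjusted p = 8.7e-10), or 10.7-fold. GDF15, a stress-induced cytokine, was at 13.9, 10.8 and 16 CPM in HT29 and at 177, 175 and 218 CPM in LS513 (-3.82 ± 0.25, adjusted p = 4.5e-12). TP53INP1 was at 0.343, 0.241 and 0.493 CPM in HT29 and at 4.6, 6.01 and 5.86 CPM in LS513 (-3.99 ± 0.39, adjusted p = 4.4e-09). The list did not move as a whole, since MDM2 (-0.13 ± 0.17, adjusted p = 0.53), BBC3, FAS and SESN1 were not called. The kinase PLK2 was higher in HT29, at 105, 114 and 94.9 CPM against 9.65, 7.92 and 7.73 CPM (3.64 ± 0.26, adjusted p = 1.3e-11). PHLDA3, which shares 19.1% of its exonic length with another gene, was at 48.1, 40.8 and 38.5 CPM in HT29 and at 15.0, 14 and 13.1 CPM in LS513 (1.60 ± 0.14, adjusted p = 4.3e-10). BAX differed by 1.19.

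Of 43 epithelial and mesenchymal genes, 40 were tested. LS513 was called higher at 14 of them and HT29 at 8 (55.0% called against 32.8% of all genes, median -0.53). The mesenchymal genes SNAI2, TWIST1 and VIM were at or near 0 in both lines, and the epithelial splicing factors ESRP1 and ESRP2 were not called. TGM2, a crosslinking transglutaminase (chr20:38127387-38166578), was at 705, 621 and 547 CPM in HT29 and had 3, 1 and 4 counts in LS513 (12.80 ± 0.34, adjusted p = 1.9e-19). The matrix protease MMP7, itself counted among Wnt targets, was at 23.6, 45.9 and 32.7 CPM in HT29 and had 0, 1 and 2 counts in LS513, a ratio of 1090.0 with a counting interval from 373 to 5300.0. S100A4 was higher in HT29 by 5.86 ± 0.23. The integrin ITGA5 had 0, 1 and 0 counts in HT29 and was at 12.9, 13.2 and 12.7 CPM in LS513, a ratio of 990.0 with a counting interval from 177 to 39100.0. The cell adhesion genes were split as well, because CDH3, which encodes P-cadherin, was higher in LS513, at 74.1, 80.5 and 89.8 CPM against 2.71, 2.68 and 3.56 CPM (-4.79 ± 0.16, adjusted p = 1.2e-17), while CDH1 was higher in HT29. The claudins CLDN1, CLDN2, CLDN3 and CLDN7 were higher in LS513, with differences between -4.61 and -1.27, and CLDN4 was not called.

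The study as a whole examined responses to extracellular ATP and adenosine, so the genes of that pathway were looked at too. Of 22 members, 12 were tested and 3 were higher in each line (50% called against 32.8% of all genes, median 0.27). The nucleotide receptor genes P2RY2 and P2RY1 lay on opposite sides. P2RY2, which binds ATP and UTP, was at 31.4, 44.2 and 36.4 CPM in HT29 and at 14.9, 15.0 and 14.9 CPM in LS513 (1.33 ± 0.14, adjusted p = 1.2e-08). P2RY1, an ADP receptor, was at 2.19, 1.58 and 2.74 CPM in HT29 and at 19.2, 19.2 and 19 CPM in LS513 (-3.16 ± 0.26, adjusted p = 1.8e-10). The adenosine receptor ADORA2B was at 9.74, 9.12 and 9.20 CPM in HT29 and at 62.3, 62.4 and 61.8 CPM in LS513 (-2.73 ± 0.11, adjusted p = 6e-16). The ATP-gated channel P2RX4 differed by -1.08 ± 0.16. NT5E, which encodes the enzyme CD73 that makes adenosine from AMP, was at 79.5, 98.8 and 68.4 CPM in HT29 and at 42.5, 40.8 and 49.2 CPM in LS513. Its difference of 0.90 ± 0.16 (adjusted p = 2.5e-05) was under the fold limit, but it was 1.02 and called without the third HT29 library. The study's qRT-PCR on cells grown in 2D had the reverse order for NT5E, lower in HT29 than in LS513. The reason for that disagreement was not tested. PANX1, which forms an ATP release channel, was not called (0.21 ± 0.14, adjusted p = 0.21).

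Over all protein-coding genes of at least 20 CPM in the higher line, the 10 widest differences in each direction were at genes with 6 or fewer counts in total in the other line. Towards HT29 these were EEF1A2, HCAR1, A4GALT, LOXL4, KRT13, GALNT14, WFDC2, MSN, NNMT and DCBLD2. EEF1A2, an elongation factor of brain and muscle, was at 159.8, 161 and 196 CPM in HT29 and had no count in LS513, at least 1785-fold higher. The lactate receptor HCAR1 was at 142, 121 and 136 CPM in HT29 and had no count in LS513, at least 1379.8-fold higher. A4GALT, GALNT14, WFDC2 and NNMT also had no count in LS513, with bounds of at least 868-fold, 652-fold, 628-fold and 517-fold. MSN, which encodes the membrane-cytoskeleton linker moesin (chrX:65588377-65741931), was at 1002, 1045 and 834 CPM in HT29 and had 2 counts in each LS513 library (13.81 ± 0.32, adjusted p = 3.1e-20). Its relative EZR was not called. DCBLD2 was at 579, 797 and 629.8 CPM in HT29 and had 3, 1 and 1 counts in LS513 (13.53 ± 0.37, adjusted p = 3.9e-19), and the difference was 14.22 without the first LS513 library. LOXL4 and KRT13 had 1 count over the 3 LS513 libraries, with ratios of 23300.0 (counting interval from 4180.0 to 919000.0) and 22900.0 (from 4120.0 to 906000.0).

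Towards LS513 the 10 widest were RUBCNL, FABP1, CDHR1, LRATD1, IL33, GUCY2C, SOHLH2, HLTF, EPDR1 and TMEM98, and none of them had a count in HT29. RUBCNL, an autophagy gene, was at 203, 218 and 216 CPM in LS513, at least 1292-fold higher. IL33, which encodes an alarmin cytokine of epithelium, was at 103, 101 and 121 CPM in LS513, at least 658-fold higher. HLTF, a DNA repair helicase, was at 68.0, 66.8 and 72.7 CPM in LS513, at least 421-fold higher. The photoreceptor cadherin CDHR1 and LRATD1 were at least 991-fold and 918-fold higher in LS513, and SOHLH2, EPDR1 and TMEM98 at least 441-fold, 388-fold and 388-fold. For SOHLH2, 43.2% of the exonic length is shared with a readthrough gene.

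Genes that mark other cell types were looked at in the same libraries. Of 20 markers of fibroblasts, endothelium, blood and liver, 9 were tested, and 6 (66.7%, against 32.8% of all genes) were called, 4 higher in HT29 and 2 in LS513, of which 3 had under 1 CPM in the higher line. The highest value of any marker in the 6 libraries was 20.5 CPM, for CD68, and the part of these genes in the results was not tested. Their summed counts were 422, 509 and 239 in the HT29 libraries and 584, 677 and 676 in those of LS513. COL1A2, COL3A1, DCN, CDH5, CD3E, MS4A1 and ALB were at 0 in all 6. CD14, a monocyte receptor, was at 6, 7.29 and 5.04 CPM in HT29 and at 0 in LS513, and CD68, a lysosomal protein of macrophages, was at 5.62, 7.54 and 4.77 CPM in HT29 and 18.0, 19.5 and 20.5 CPM in LS513 (-1.68 ± 0.20, adjusted p = 1e-07). The leukocyte marker PTPRC reached no more than 0.069 CPM. For CD68, 81.7% of the exonic length overlaps another gene.

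The same lines grown in 3D gave 6 further libraries. They were not part of the contrast above, but they entered the same fit, with its filter, scaling and estimate of the spread. The shared calls below therefore do not come from libraries kept apart from the 2D test. Between HT29 and LS513 in 3D, 6583 of the 19387 genes (34.0%) were called. Of the 6359 genes called in 2D, 6098 (95.9%) had the same sign in 3D, and 4828 were called in both with the same sign, which is 75.9% of the calls in 2D and 73.3% of those in 3D. There were 41 genes (0.645% of the calls in 2D) called in opposite directions. The difference between the lines itself differed between 2D and 3D at 1067 genes (5.50% of those tested, adjusted p under 0.05 and a size over 1), of which 732 were among the 6359 called in 2D. CDH1 differed by 3.72 in 3D and SMAD4 by -2.52, both near their differences in 2D, and neither passed that test.

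Some lineage genes were closer between the lines in 3D. Most genes named here were picked for a wide difference in 2D, which favors a smaller one in 3D, so the direction of these changes over the named genes is no result. CDX2 was at 6.72 CPM in HT29 and 233 CPM in LS513 in 3D, a difference of -5.11, which was smaller in size than in 2D by 1.66 (HT29 minus LS513 in 2D less that in 3D was -1.66, adjusted p = 6.2e-06). TP53INP1 and PLAC8 were called between the lines in 2D and not in 3D, with differences of -0.08 (adjusted p = 0.85) and 0.24 (adjusted p = 0.16) in 3D. ATOH1 went from a difference of -4.99 in 2D to -0.35 in 3D, with 5.73 CPM in HT29 and 7.30 CPM in LS513, and the change passed the test (adjusted p = 6.4e-09). DLL4 was at 5.46 and 13 CPM in 3D, a difference of -1.25. LGR5 overlapped in 2D and was higher in HT29 in 3D, with 8.30 CPM against 2.77 CPM (1.58, adjusted p = 9.6e-06). AXL had the reverse course, with 12.2 CPM in HT29 in 2D and 1.34 CPM in 3D, and its difference fell from 6.81 to 2.18.

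**Figure D4:**
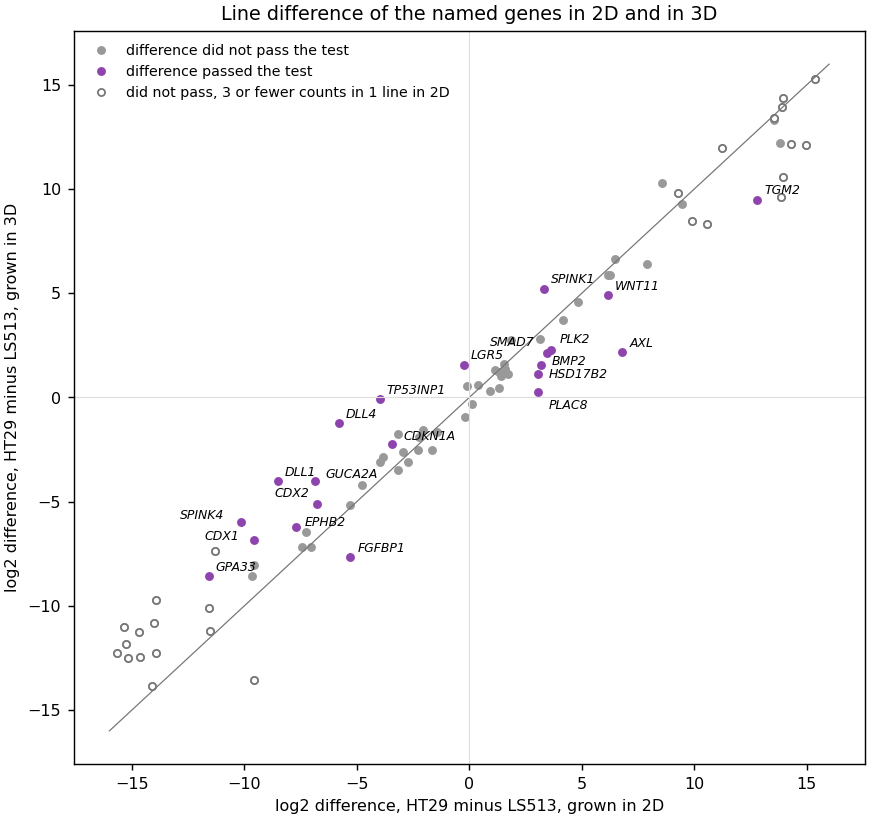
Log2 difference between HT29 and LS513 in 2D (horizontal axis) and in 3D (vertical axis) for the 89 genes named by the rule, with 1 point per gene and the line of equality. Purple points are the 21 genes whose difference itself differed between growth conditions, and open points are genes with 3 or fewer counts in 1 line in 2D, whose fitted position is uncertain.

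The other lines of the series grown in 2D are given beside HT29 and LS513 for a few genes, without a test. CDX2 was at 19.1 ± 1.53 CPM in HCT116 and 76.2 ± 2.12 CPM in LS174T, so HT29 was the lowest of the 4. CDX1 was at 0.00959 ± 0.0166 CPM in HCT116 and 108 ± 7.61 CPM in LS174T, so both HT29 and HCT116 were under 1 CPM. GPA33 followed the same split, with 0.304 ± 0.0874 CPM in HCT116 and 232 ± 11 CPM in LS174T. LYZ was at 0.175 ± 0.223 CPM in HCT116 and 2.05 ± 0.406 CPM in LS174T, so the 1373 ± 57.4 CPM of HT29 stood alone among the 4 lines. SMAD4 was at 53.8 ± 5.05 CPM in HCT116 and 60.7 ± 4.69 CPM in LS174T, close to LS513, and HT29 was again the exception. CDH1 was at 22.8 ± 1.68 CPM in LS174T, which overlaps the 23.9 ± 1.79 CPM of LS513, and at 89.0 ± 10.8 CPM in HCT116. LEF1 was under 0.1 CPM on average in HT29, HCT116 and LS174T, so LS513 was the only line of the 4 with a level above that. HCT116 was kept in another medium than the other lines, so for that line the medium and the line cannot be told apart.

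**Figure D5:**
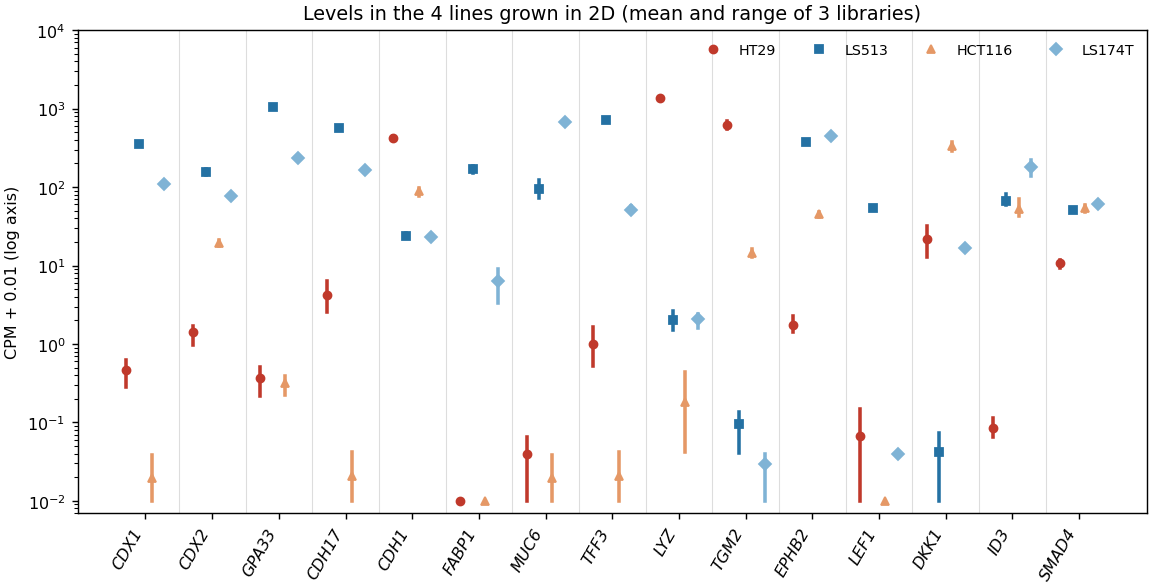
Mean CPM + 0.01 on a log axis of 15 genes in HT29, LS513, HCT116 and LS174T grown in 2D, with a bar from the lowest to the highest of 3 libraries. HT29 lies lowest of the 4 lines for CDX2 and SMAD4 and highest for LYZ and TGM2, while LS513 alone has a mean above 0.1 CPM for LEF1.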

How the data were processed

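Poly(A) RNA of the 2D cultures was sequenced as single reads from strand-specific libraries. The deposited values are raw, unnormalized counts by gene, 1 set per technical replicate. The authors trimmed the reads, mapped them with STAR, dropped those with more than 1 alignment and counted the rest over exons with HTSeq. The submitters' processing notes name bcl2fastq 2.18.0.12, Trim Galore 0.4.1, HTSeq 0.5.3 and hg19, while the methods name an Ensembl annotation on GRCh38, which the identifiers fit. The HTSeq options are not given in the sources used here. Symbols were found for 57532 and GENCODE 29 positions for 57980 of 58243 identifiers.

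Groups came from the labels. The 8 technical replicates of each library were summed (7 for 1 HT29-3D library, of which 1 was not analysed here). All 24 libraries were fitted in R 4.3.3 with edgeR 4.0.16 (filterByExpr, TMM, robust quasi-likelihood, 8 groups), which kept 19387 genes, and HT29-2D was contrasted with LS513-2D. Calls needed an adjusted p (two-sided) below 0.05 and a difference over 1 on the log2 scale. The steps were tested on simulated data. Alternatives were DESeq2 1.42.0 and its size factors, other filters, samples and cutoffs, a replicate block, and each library left out.

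The members and the 16 lists (531 genes) were chosen with earlier results of these data known. Per list, the 2 widest called differences per direction were named among genes of at least 5 CPM in the higher line without overlap, then the 10 widest per direction among protein-coding genes of at least 20 CPM, leaving out XIST and Y-linked genes, and a set of genes whatever their values (CDX2, KRT20, MUC2, LGR5, AXIN2, DUSP6, EREG, SMAD4, CDKN1A, P2RY2 and NT5E). A few genes that the rules and lists cover are not reported here. All other genes named were chosen after their values were seen.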

Additional observations from a re-analysis of the deposited data

Results flagged for a closer look

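For 21 of the 89 genes named by the rule, the difference between HT29 and LS513 itself differed between 2D and 3D growth, by edgeR's interaction test with an adjusted p under 0.05 and a size over 1. Most of the 89 were picked for a wide difference in 2D, the same value that enters this test, so neither their number nor the share of them that were closer in 3D is read against other genes. The values below are the log2 difference of HT29 over LS513 in 2D minus that in 3D. For genes higher in LS513 in 2D, a negative value means that the lines were closer in 3D. This was so for GPA33 (-2.99), CDX1 (-2.75), CDX2 (-1.66), GUCA2A (-2.85), SPINK4 (-4.18), EPHB2 (-1.48), DLL1 (-4.50), DLL4 (-4.56), TP53INP1 (-3.91) and CDKN1A (-1.19). FGFBP1, at 2.38, was the gene of that side for which the lines were farther apart in 3D. The DLL1 value rests on 2 counts in HT29 in 2D, so its size is uncertain.

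For genes higher in HT29 in 2D, a positive value means that the lines were closer in 3D. This was so for HSD17B2 (1.93), PLAC8 (2.80), WNT11 (1.21), SMAD7 (1.31), BMP2 (1.58), AXL (4.64), PLK2 (1.35) and TGM2 (3.30). SPINK1, at -1.92, was farther apart in 3D, where it was at 79.2 CPM in HT29 and 2.11 CPM in LS513. LGR5, at -1.82, was the gene that was not called in 2D and was higher in HT29 in 3D. SPINK4 was at 0.167 CPM in HT29 in 2D and at 3.72 CPM in 3D, while LS513 was at 213 and 234 CPM.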

How the results depend on the processing

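The counts of calls kept within 1.5 times of 3160 (higher in HT29) and 3199 (higher in LS513) under 8 further settings in each direction, from 2245 (test against a log2 difference of 1) to 3540 in HT29 and from 2333 to 3567 in LS513. With each of the 6 libraries left out in turn they were between 3021 and 3116 in HT29 and between 3109 and 3170 in LS513. Other fold limits moved them by construction, to 5745 and 5995 with no limit and to 1841 and 1683 with a limit of 2 on the log2 scale, and that limit left 75 of 113 list genes higher in HT29. All 208 list counts stayed within 1.5 times, though that of the enteroendocrine, Paneth and tuft genes fell from 14 to 10 in some fits. Of 1157 results for the 89 genes named by the rule, 1155 kept their direction and call and none reversed. The exceptions were MUC2 with the replicate block (-3.73, adjusted p = 0.051) and NT5E without the third HT29 library (1.02), and the cause was not tested.

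HT29 and LS513 share replicate numbers. The deviations of same-numbered libraries correlated at -0.10, -0.18 and 0.04, and those of other pairs at between -0.09 and 0.18. Deviations within a line sum to 0, which ties these values to each other. They cannot show whether same-numbered libraries were handled together. A fit with the replicate number as a block called 2960 genes higher in HT29 and 3069 higher in LS513, and 5977 of its 6029 calls were shared, 94.0% of the 6359 without the block. Where the lower line had 3 or fewer counts in all, 1 library can set or move the size. FGF19 (first LS513 library), LOXL4 (the first), KRT13 (the third), ITGA5 (second HT29 library) and DLL1 (the first) had no count left in the lower line without it. Fitted differences of DKK1 without the first LS513 library (10.14 in place of 9.28), MMP7 without the third (10.76 in place of 9.91) and MUC6 without the first HT29 library (-10.98 in place of -11.59) moved by over 1.5 times. Depth limits the genes at 0 in 1 line, whose difference is known only as a bound.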
